A study of Homo sapiens with 6 samples.

Results

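The numbered RBM genes were examined here in PC-9 lung cancer cells with and without RBM10 knockdown (KD). A gene was included when its symbol was RBM followed by a number and at most 1 letter, and RBM10, RBM5, RBM6, RBM25, RBM4 and RBM11 were left out. This gave 31 genes with 69 RefSeq isoforms, among 26334 genes and 51398 isoforms in the files. Of the 31 genes, 29 had enough counts to be tested, and RBM24 and RBM46 did not.

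RBM proteins carry RNA recognition motifs, folded domains that bind short stretches of single-stranded RNA. The name marks the motif and not a common function, so the family runs from spliceosome subunits and the exon junction complex to adaptors of RNA methylation, nuclear RNA decay, ribosome assembly and tissue-specific splicing. Several family members, RBM10 among them, act on the choice of exons in other transcripts, and many RNA-binding proteins set their own level through alternative splicing.

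PC-9 cells come from a human lung adenocarcinoma and depend on mutant EGFR. Untreated cultures, grown in RPMI with 10% FBS, expressed either shScr, a scrambled control hairpin, or a hairpin that targets RBM10, called shRBM10#1 or shRBM10#2, and each of these 3 conditions has 2 RNA-Seq libraries. The control is shScr in the labels and in the study's results section and parental PC-9 cells in its methods, and the libraries were analyzed as shScr. No source used here says whether the 2 libraries of a condition came from separate cultures, so the tests measure the spread between these libraries, which may be technical.

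The 6 libraries held between 31953729 and 37557507 expected counts, the fractional read counts that RSEM assigns to isoforms. Levels of 1 gene across libraries are given as CPM, counts scaled to the TMM-adjusted library size, and levels of different genes are compared as TPM, which are also scaled by transcript length. In the shScr replicate 2 library the fragment length implied by the effective lengths was 231 nt, against 265 to 281 nt in the other 5. TPM was highest in that library for 19 of the 29 genes tested, whereas CPM was highest there for 7 of the 29. All 6 epithelial markers were at 10 TPM or above in every library, and the endothelial marker CDH5 (4.65 to 10.9 TPM) and CD68 (76.8 to 116 TPM) were the highest of the endothelial and leukocyte lists, in which the defining leukocyte gene PTPRC stayed at or below 0.05 TPM.

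RBM10 itself was at 83.2 and 86.2 CPM in shScr, 59.8 and 56.4 CPM in shRBM10#1, and 27.2 and 26.9 CPM in shRBM10#2, with no overlap between conditions. Its log2 FC was -0.54 ± 0.067 (SE) with shRBM10#1 (edgeR quasi-likelihood test, Benjamini-Hochberg FDR 0.000228) and -1.65 ± 0.0701 with shRBM10#2 (edgeR FDR 5.1e-08).

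The numbered RBM genes covered a wide range of levels in these cells. RBM42, a protein associated with the U4/U6.U5 tri-snRNP, was the highest, at 120 to 164 TPM over the libraries. RBM39, a U2AF-related splicing factor, followed with 86.4 to 109 TPM, and RBM47, an epithelial splicing regulator that also serves as a cofactor of the cytidine deaminase APOBEC1, with 72.4 to 93.2 TPM. The ranges of RBM39 and RBM47 overlapped. RBM8A, the exon junction complex subunit Y14, was at 53.2 to 62.5 TPM.

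A middle group of 6 genes came next. It held the nucleolar protein RBM34 (46.2 to 63.2 TPM), the p53-induced regulator of mRNA stability RBM38 (45.9 to 52.4 TPM), the active-site spliceosome protein RBM22 (39.7 to 46.9 TPM), the RBM39 paralog RBM23 (35.7 to 42.6 TPM), the cold-inducible RBM3 (34.6 to 45.4 TPM) and RBM12 (31.6 to 41.4 TPM). Neighbors in this order overlapped in their ranges. RBM17, the splicing factor SPF45, was at 27.4 to 34.7 TPM and RBM14, a coactivator and paraspeckle protein, at 20.1 to 29.6 TPM.

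The remaining genes were lower. RBM27, RBM15B, RBM28, RBM4B, RBM15, RBM26 and RBM18 lay between 11.4 and 19.4 TPM in every library, and RBM19, RBM45, RBM12B, RBM33, RBM41, RBM7 and RBM48 between 6.25 and 13.6 TPM. RBM43 was at 3.12 to 4.22 TPM.

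Genes known for expression in heart and skeletal muscle or in germ cells stood at the bottom. RBM20, the cardiac regulator of titin splicing, was at 0.25 to 0.43 TPM and RBM44, a germ cell gene, at 0.11 to 0.32 TPM. RBM24, a muscle splicing regulator, ranged from 0 to 0.15 TPM, with at most 0.215 CPM, against 0.0783 to 0.0959 CPM for the upper limit that a count of 0 allows (3 counts per library). RBM46, a germ cell gene, had no count in any library. These limits cover counting error only.

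Paralogs differed in level in several pairs. RBM39 stood above RBM23 in every library, with a lowest RBM39 value of 86.4 TPM and a highest RBM23 value of 42.6 TPM. RBM12 stood above RBM12B, which had 8.6 to 12.4 TPM. In contrast, the ranges overlapped for RBM15 (14.1 to 16.8 TPM) and RBM15B (15 to 19.4 TPM), and for RBM26 (12.2 to 16.2 TPM) and RBM27 (14.9 to 19.3 TPM). RBM4B was at 15.3 to 17.4 TPM, and its close copy RBM4 could share reads with it, so the level of RBM4B is uncertain.

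**Figure D1:**
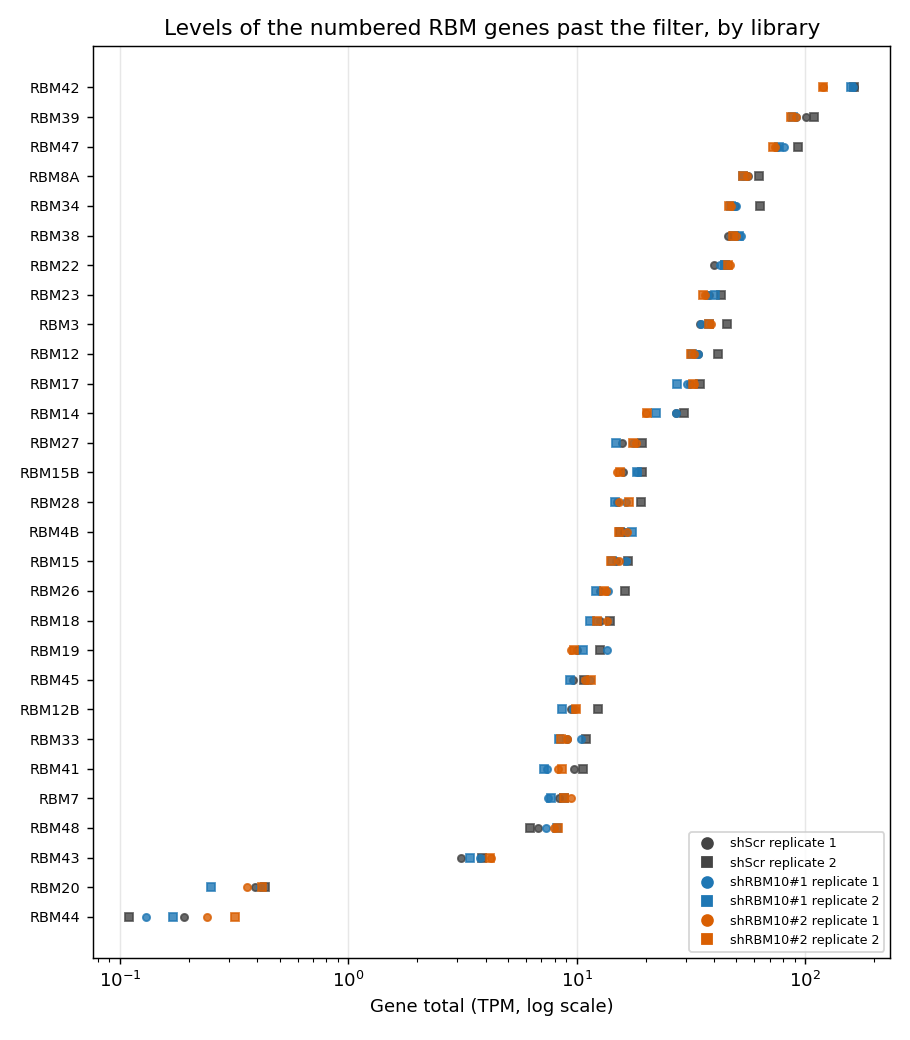
Gene totals in TPM (log axis) of the 29 numbered RBM genes past the filter, ordered by mean, with 1 point per library (color, condition; shape, replicate). RBM42 lies between 120 and 164 TPM and RBM44 between 0.11 and 0.32 TPM, and the black squares of shScr replicate 2 are the rightmost point for 19 of the 29 genes.

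The next question was whether the totals of these genes differed upon RBM10 KD. With shRBM10#1, 2 of the 29 genes passed an FDR of 0.05, RBM38 (higher) and RBM41 (lower), against 14.0% of the 14217 genes tested (1014 genes higher, 982 lower). With shRBM10#2, 3 of the 29 passed, RBM43 (higher) and RBM14 and RBM42 (lower), against 25.9% of all genes (1708 genes higher, 1977 lower). Between shRBM10#2 and shRBM10#1, 5 of the 29 passed, RBM41 (higher with shRBM10#2) and RBM42, RBM15B, RBM14 and RBM19 (lower), against 25.5% of all genes (1563 genes higher, 2065 lower). The 3 shares of this family, 6.9%, 10.3% and 17.2%, lay below those of all genes, and the difference between the shares was not tested. The comparisons share libraries, so they are not independent of each other. Where conditions are said below not to overlap, the share of all genes that separate in this way was not counted.

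The differences were small. The log2 FC of the 29 genes ranged from -0.39 to 0.33 with shRBM10#1 and from -0.42 to 0.94 with shRBM10#2, where the upper end was the barely detected RBM44 (0.94 ± 0.436 (SE), edgeR FDR 0.133). Their median was -0.01 and -0.02, against 0.01 for all genes in both comparisons. All 29 genes had an absolute log2 FC below 0.5 with shRBM10#1, and 28 of 29 with shRBM10#2. When the 4 shRBM10 libraries were taken as 1 group against shScr, 0 of the 29 genes passed with edgeR, as with DESeq2, against 1.62% of all genes, and 2 of the 29 had an unadjusted p below 0.05 with edgeR (RBM41 and RBM48). RBM10 itself did not pass in this pooled fit (-0.99 ± 0.306 (SE), edgeR FDR 0.146). The difference between the shRNAs counts as spread in this fit, so 0 of 29 does not show that no total changed.

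**Figure D2:**
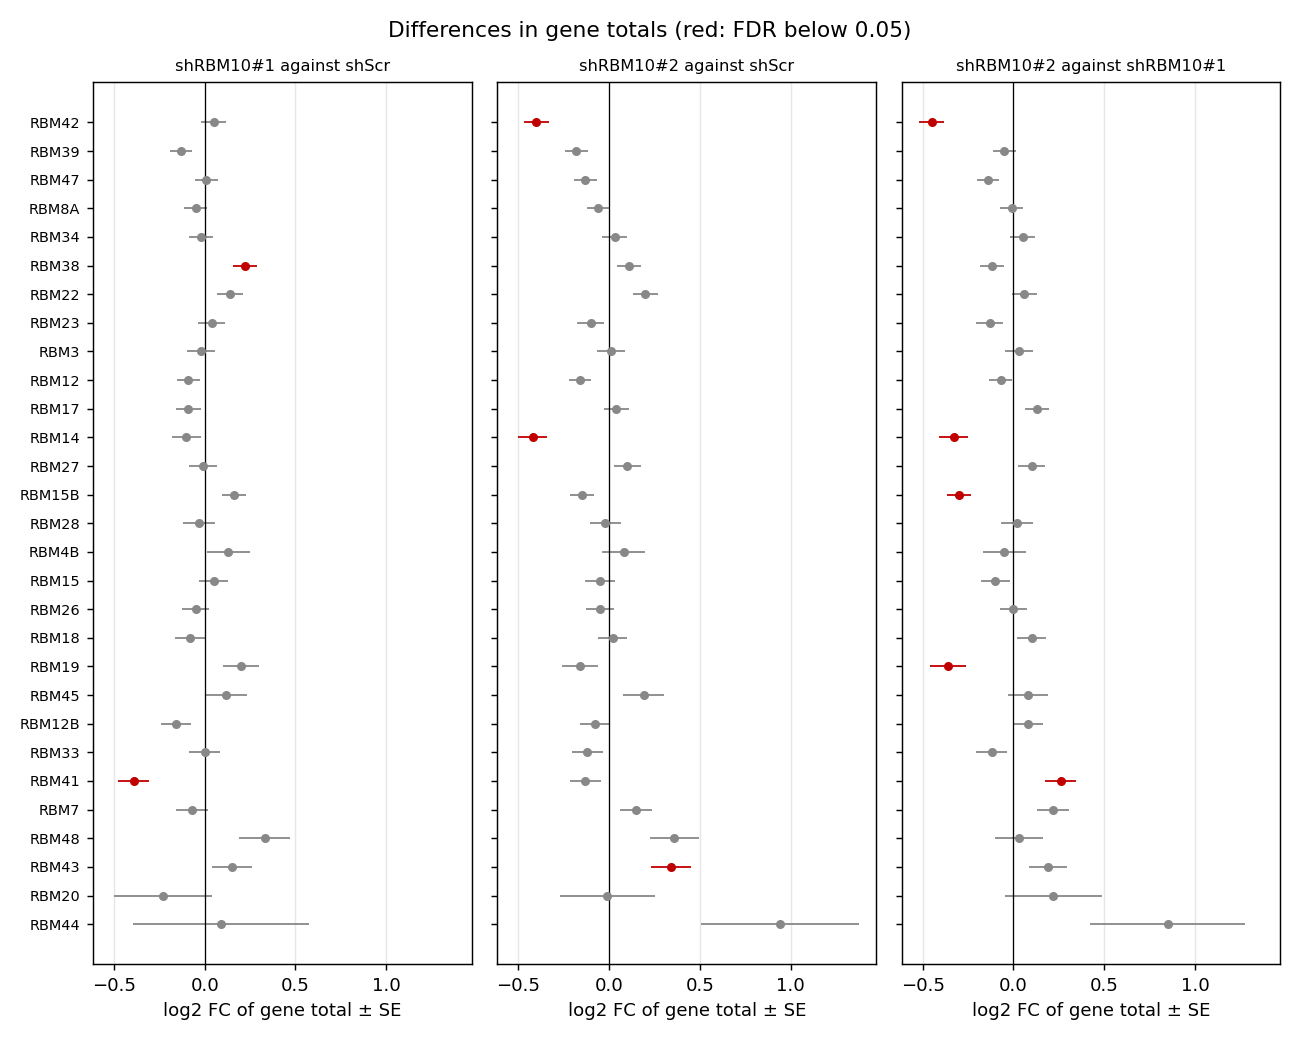
Log2 FC of the gene total ± SE for the 29 genes tested, ordered by TPM, in each comparison of 2 conditions (6 libraries, edgeR), with red points for an FDR below 0.05. Most points lie within 0.2 of 0, and RBM42 and RBM14 are red and to the left in both comparisons that involve shRBM10#2.

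Among the 7 spliceosome and exon junction complex genes, RBM42 differed with shRBM10#2. RBM42 was at 158 and 140 CPM in shScr, 154 and 155 CPM in shRBM10#1, and 112 and 114 CPM in shRBM10#2. Both shRBM10#2 libraries lay below the other 4, and the shScr and shRBM10#1 libraries overlapped. The log2 FC was -0.40 ± 0.0698 (SE) against shScr (edgeR FDR 0.00189) and -0.45 ± 0.0697 against shRBM10#1 (edgeR FDR 0.000967), whereas shRBM10#1 gave 0.05 ± 0.0695 against shScr (edgeR FDR 0.695). The total of RBM42 passed the FDR in both comparisons under each alternative fit that left no library out. It did not pass an added criterion of an absolute log2 FC above 1. With any 1 library left out, its log2 FC lay between -0.49 and -0.30 against shScr. All RBM42 counts belonged to NM_024321. Tested among the isoforms, NM_024321 did not pass in the main fit (edgeR FDR 0.0599 against shScr and 0.0512 against shRBM10#1), and did in DESeq2.

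RBM41, which binds the U12 snRNA of the minor spliceosome, differed with shRBM10#1. It was at 20.7 and 21.4 CPM in shScr, 16.4 and 15.8 CPM in shRBM10#1, and 18.8 and 19.7 CPM in shRBM10#2, and the 3 conditions did not overlap. The log2 FC with shRBM10#1 was -0.39 ± 0.0848 (SE; edgeR FDR 0.00924), and it did not pass without shScr replicate 2 (-0.36, edgeR FDR 0.0616). RBM41 was 0.26 ± 0.0845 higher with shRBM10#2 than with shRBM10#1 (edgeR FDR 0.0407). This second difference did not pass with DESeq2 (FDR 0.0994), with an offset for effective length (0.18, edgeR FDR 0.159), or with any 1 of the 4 shRBM10 libraries left out (edgeR FDR 0.0576 to 0.255).

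The other 5 genes of this list did not pass in these comparisons. RBM8A was at 184 and 179 CPM in shScr, 172 and 178 CPM in shRBM10#1, and 178 and 170 CPM in shRBM10#2, with overlap among all conditions and a log2 FC of -0.05 ± 0.0621 (SE; edgeR FDR 0.626) and -0.06 ± 0.0621 (edgeR FDR 0.528). RBM39 was at 183 and 173 CPM in shScr, 163 and 164 CPM in shRBM10#1, and 162 and 154 CPM in shRBM10#2. Both shScr libraries of RBM39 lay above the other 4, yet the log2 FC of -0.18 ± 0.063 with shRBM10#2 did not pass in edgeR (FDR 0.0564) and did in DESeq2.

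RBM17 was at 67.2 and 65.2 CPM in shScr, 64.3 and 59.8 CPM in shRBM10#1, and 68.1 and 68 CPM in shRBM10#2, a log2 FC of -0.09 ± 0.0677 (SE; edgeR FDR 0.401) and 0.04 ± 0.0672 (edgeR FDR 0.709). RBM22 had a log2 FC of 0.20 ± 0.0691 with shRBM10#2 (edgeR FDR 0.0505), and RBM48, a partner of ARMC7 in the splicing of U12-type introns, 0.36 ± 0.136 (edgeR FDR 0.0693). Each of these values lay close to the threshold. When only the 4 libraries compared were fitted, RBM22, RBM48, RBM39 and RBM12 brought the count of genes that passed with shRBM10#2 from 3 to 7. The share of all genes that passed in that fit is not given here, so the rise cannot be set against it.

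Partners of these complexes were listed as well. Over all partner lists of this report, 19 genes were tested with edgeR. Of these, 0%, 21.1% and 15.8% passed with shRBM10#1, with shRBM10#2 and between the shRNAs, against 14.0%, 25.9% and 25.5% of all genes. The shares of the partners lay below those of all genes, and the difference was not tested. Of 4 further genes of the exon junction complex, none passed with shRBM10#1 (edgeR or DESeq2), and 0 had an unadjusted p below 0.05 in edgeR. With shRBM10#2 MAGOHB, a paralog of the RBM8A-binding protein MAGOH, was higher (0.22 ± 0.0751 (SE), edgeR FDR 0.0462). The accessory subunit CASC3 was lower with shRBM10#2 (-0.22 ± 0.0668, edgeR FDR 0.0307), and only CASC3 of these passed in DESeq2. Among 4 proteins of the U12-type spliceosome, RNPC3 was higher with shRBM10#2 than with shScr (0.47 ± 0.145, edgeR FDR 0.0325; not passed in DESeq2) and than with shRBM10#1 (0.58 ± 0.146, edgeR FDR 0.0126), and ZRSR2 was lower with shRBM10#2 than with shRBM10#1 (-0.53 ± 0.137, edgeR FDR 0.0143). RNPC3 was at 4.19 to 4.83 CPM in the shScr and 4.13 to 4.25 CPM in the shRBM10#1 libraries, and at 5.95 and 6.52 CPM in shRBM10#2.

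The total of RBM14 also differed with shRBM10#2. It passed the FDR against shScr under each alternative that left no library out, other than an added absolute log2 FC above 1. RBM14 lies upstream of RBM4 on chromosome 11. A read-through gene, RBM14-RBM4, joins exon 1 of RBM14 to exons in the RBM4 region, so reads from exon 1 alone can belong to either. The exon junctions that tell these transcripts apart are shown. Reads across them were not counted separately here, and the levels are expected counts, which also split reads from shared exons. Each run gives the last 15 bases of exon 1, which ends at chr11:66617057 (plus strand, GRCh38, GENCODE 29), in lower case and the next 15 bases in capitals. Exon 2 of RBM14 is chr11:66624214-66625678, and that of the read-through isoforms NM_001198845 and NM_001198846 is chr11:66643450-66644140 and chr11:66646027-66646467. All printed bases are coding.
RBM14, NM_006328: gtgacgtggtgaaagACTACGCGTTTGTTC
RBM14-RBM4, NM_001198845: gtgacgtggtgaaagGCAAACGAATGCACG
RBM14-RBM4, NM_001198846: gtgacgtggtgaaagGTGGGATGTGTGTGG

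The total of RBM14 was 97.4 and 92.3 CPM in shScr, 96.2 and 81.3 CPM in shRBM10#1, and 70 and 71.4 CPM in shRBM10#2. Both shRBM10#2 libraries lay below the other 4, and the shRBM10#1 libraries differed from each other by more than the shScr libraries did. The log2 FC with shRBM10#2 was -0.42 ± 0.0801 (SE; edgeR FDR 0.00285), and -0.10 ± 0.0797 with shRBM10#1 (edgeR FDR 0.464). NM_006328 made up 98.8% to 99.6% of the RBM14 counts. Tested among the isoforms, NM_006328 did not pass with shRBM10#2 in the main fit (-0.42 ± 0.0897 (SE), edgeR FDR 0.0781), and did in DESeq2.

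The difference of -0.33 ± 0.0801 (SE) between shRBM10#2 and shRBM10#1 passed (edgeR FDR 0.0108), but not without shRBM10#1 replicate 1 (-0.20, edgeR FDR 0.056), shRBM10#2 replicate 1 (edgeR FDR 0.111) or shRBM10#2 replicate 2 (edgeR FDR 0.0913).

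The read-through RBM14-RBM4 was at 21 and 29.8 CPM in shScr, 23 and 23.1 CPM in shRBM10#1, and 11.3 and 10.9 CPM in shRBM10#2, nearly all of it NM_001198846. Its shRBM10#2 libraries were below the other 4, with a log2 FC of -1.20 ± 0.135 (SE; edgeR FDR 0.000157). RBM4 was at 106 and 102 CPM in shScr, 101 and 107 CPM in shRBM10#1, and 89.7 and 87.1 CPM in shRBM10#2, a log2 FC of -0.23 ± 0.0648 with shRBM10#2 (edgeR FDR 0.0209). The totals of all 3 neighboring genes were thus lower with shRBM10#2, but reads from shared exons can link these totals. Not every isoform of RBM4 was lower with shRBM10#2. NM_002896 was lower (-0.44 ± 0.0556 (SE), edgeR FDR 0.0396) and NM_001198843 was at 0.01 ± 0.176 (edgeR FDR 0.988). NM_001198844 was higher but did not pass (0.71 ± 0.142, edgeR FDR 0.07). With the read-through counts added to RBM14, a setting chosen after the data were seen, the log2 FC of RBM14 was -0.56 ± 0.0724 (edgeR FDR 0.000398).

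**Figure D3:**
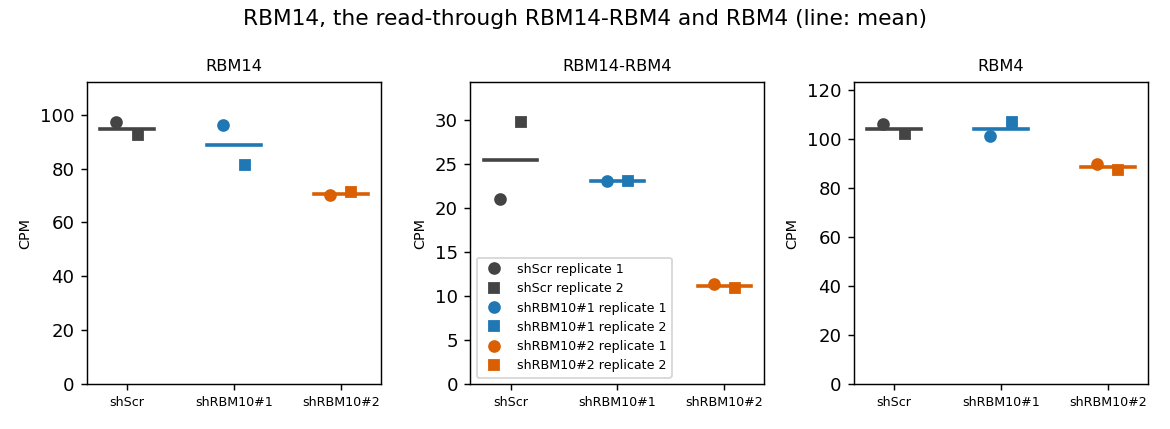
TMM-scaled CPM of RBM14, RBM14-RBM4 and RBM4 in each of the 6 libraries, with the mean of each condition as a line and the axis from 0. The shRBM10#2 points lie below the other 4 in each panel, at 70 and 71.4 CPM for RBM14 and 11.3 and 10.9 CPM for the read-through.

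RBM15 and RBM15B are adaptors that bring the m6A methyltransferase complex to RNA. RBM15B was at 70.9 and 75.4 CPM in shScr, 80.5 and 82.8 CPM in shRBM10#1, and 65 and 67.3 CPM in shRBM10#2, so the shRBM10#1 libraries lay above and the shRBM10#2 libraries below the shScr libraries. Neither difference from shScr passed (log2 FC 0.16 ± 0.066 (SE), edgeR FDR 0.133, and -0.15 ± 0.0662, edgeR FDR 0.127), whereas the difference between the shRNAs did, at -0.30 ± 0.066 (edgeR FDR 0.00572). The latter did not pass without shRBM10#2 replicate 1 (edgeR FDR 0.103) or replicate 2 (edgeR FDR 0.0669).

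RBM15 was at 32.2 and 31.7 CPM in shScr, 34.9 and 31.3 CPM in shRBM10#1, and 32 and 29.6 CPM in shRBM10#2. These conditions overlapped, with a log2 FC of 0.05 ± 0.0802 (SE; edgeR FDR 0.742) and -0.05 ± 0.08 (edgeR FDR 0.662). Of 6 further subunits of the m6A writer complex that were tested, ZC3H13 differed with shRBM10#2, by -0.42 ± 0.0862 against shScr (edgeR FDR 0.0045) and -0.27 ± 0.0863 against shRBM10#1 (edgeR FDR 0.0379), and none passed with shRBM10#1 (edgeR or DESeq2; 1 had an unadjusted p below 0.05). ZC3H13, a zinc finger scaffold of that complex, was at 70.5 and 77.6 CPM in shScr, 72.7 and 60.9 CPM in shRBM10#1, and 55.9 and 54.9 CPM in shRBM10#2.

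Of the 3 nucleolar genes, RBM19, which is needed for ribosomal RNA processing, differed between the shRNAs. RBM19 was at 27.2 and 29.4 CPM in shScr, 36.2 and 29 CPM in shRBM10#1, and 24.8 and 25.9 CPM in shRBM10#2. The shRBM10#1 libraries overlapped with shScr, and replicate 1 stood apart from replicate 2. The log2 FC between shRBM10#2 and shRBM10#1 was -0.36 ± 0.0994 (SE; edgeR FDR 0.0183), and it did not pass without shRBM10#1 replicate 1 (-0.20, edgeR FDR 0.135), shRBM10#2 replicate 1 (edgeR FDR 0.145) or shRBM10#2 replicate 2 (edgeR FDR 0.0988). RBM28 and RBM34, which act in the assembly of the large ribosomal subunit or are homologous to yeast proteins that do, had log2 FCs from -0.03 to 0.05 over the 3 comparisons and did not pass.

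The 4 nuclear RNA decay and export adaptors did not pass in any comparison of the 6 libraries with edgeR or DESeq2, with 1 unadjusted p below 0.05 in edgeR (RBM7, between the shRNAs). RBM7, the RNA-binding subunit of the nuclear exosome targeting complex, was at 20.4 and 18.6 CPM in shScr, 18 and 19.1 CPM in shRBM10#1, and 22.4 and 21 CPM in shRBM10#2. Its shRBM10#2 libraries were the highest, with a log2 FC of 0.15 ± 0.0876 (SE) against shScr (edgeR FDR 0.227) and 0.22 ± 0.0877 against shRBM10#1 (edgeR FDR 0.0783). RBM26, RBM27 and RBM33 had log2 FCs from -0.12 to 0.10. The 4 further genes of the nuclear exosome adaptor complexes that were tested (SKIV2L2, ZCCHC8, ZFC3H1 and PABPN1) had 0 that passed with edgeR or DESeq2 and log2 FCs from -0.12 to 0.20, with 1 unadjusted p below 0.05 over the 3 comparisons.

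Of 9 regulators of alternative splicing and mRNA stability, 7 were tested, and besides RBM14 only RBM38 passed, with shRBM10#1. RBM38 was at 68 and 63.7 CPM in shScr, 76.3 and 77.6 CPM in shRBM10#1, and 72 and 70.1 CPM in shRBM10#2. The 3 conditions did not overlap. The log2 FC was 0.22 ± 0.0663 (SE; edgeR FDR 0.04) with shRBM10#1 and 0.11 ± 0.0663 with shRBM10#2 (edgeR FDR 0.25). The first of these passed in only 1 of the 6 fits that left out a library (without shRBM10#1 replicate 1), with an edgeR FDR of 0.0506 to 0.196 in the other 5, and not with the effective length offset (edgeR FDR 0.0542).

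RBM47 had the most counts of the family, with 252 and 269 CPM in shScr, 265 and 261 CPM in shRBM10#1, and 240 and 236 CPM in shRBM10#2. The shRBM10#2 libraries were the lowest, and the log2 FC was -0.13 ± 0.0626 (SE) against shScr (edgeR FDR 0.142) and -0.14 ± 0.0626 against shRBM10#1 (edgeR FDR 0.111). RBM4B, RBM20, RBM23 and RBM45 did not pass, with log2 FCs from -0.23 to 0.22, of which the widest belonged to RBM20 at 1.22 to 2.01 CPM (SE up to 0.271).

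RBM3, a cold-inducible RNA-binding protein, was at 101 and 115 CPM in shScr, 100 and 112 CPM in shRBM10#1, and 110 and 108 CPM in shRBM10#2. The spread within shScr and within shRBM10#1 was wider than the difference between any conditions (log2 FC -0.02 ± 0.0781 (SE), edgeR FDR 0.883, and 0.01 ± 0.0779, edgeR FDR 0.94). CIRBP, the other cold-inducible RNA-binding protein of this type, did not pass either (0.17 ± 0.0725 and 0.16 ± 0.0723, edgeR FDR 0.133 and 0.117).

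Among 5 less characterized genes, RBM43 passed with shRBM10#2. It was at 7.98 and 8.53 CPM in shScr, 9.43 and 8.85 CPM in shRBM10#1, and 10.5 and 10.4 CPM in shRBM10#2, and the 3 conditions did not overlap. The log2 FC was 0.34 ± 0.109 (SE; edgeR FDR 0.0378), and it did not pass with DESeq2 (FDR 0.109), with the effective length offset (edgeR FDR 0.0501), or with any 1 of the 4 libraries compared left out (edgeR FDR 0.0746 to 0.188). RBM12, RBM12B and RBM18 had log2 FCs from -0.16 to 0.10 and did not pass. CPNE1, which overlaps RBM12, did not pass either (-0.20 ± 0.0709 with shRBM10#2, edgeR FDR 0.0553), and whether the libraries kept the strand is not given in the sources used here.

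**Figure D4:**
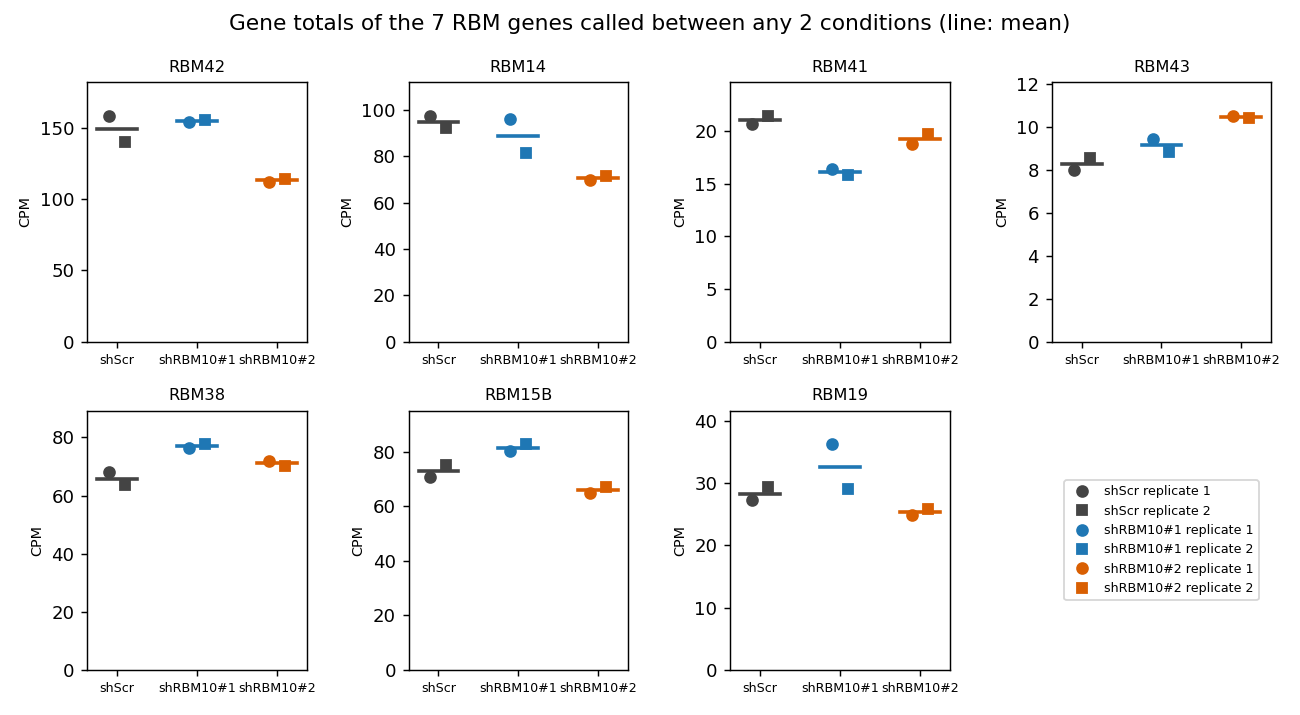
TMM-scaled CPM per library of the 7 genes that passed an FDR of 0.05 between any pair of conditions, with the mean of each condition as a line and each axis from 0. RBM42 and RBM14 are low in both shRBM10#2 libraries, RBM41 is lowest in shRBM10#1, RBM43 is highest in shRBM10#2, and the steps of RBM38 are small beside its level.

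Isoforms of these genes were then compared with the criteria of the study's methods, an FDR below 0.05 and an absolute log2 FC above 1. Of the 69 isoforms, 55 were tested, and 0 passed with shRBM10#1, with shRBM10#2, between the shRNAs or with both shRNAs pooled, against 0.0227%, 0.491%, 0.359% and 0% of the 26464 isoforms tested. Unadjusted edgeR p-values below 0.05 were found for 6, 11, 8 and 7 of the 55. With DESeq2, 1 isoform passed with shRBM10#2 and 1 between the shRNAs, in both cases NM_001161533 of RBM34. The shares of all isoforms above are from edgeR, and those with DESeq2 are not given here.

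The share of each isoform in its gene was tested as isoform usage for the 14 genes with at least 2 isoforms past the filter. With edgeR, 0 of the 14 passed in each comparison, against 0.172% with shRBM10#1, 2.75% with shRBM10#2, 1.92% between the shRNAs and 0.515% pooled of the 6405 genes tested. An unadjusted p below 0.05 was found for 0, 1, 1 and 0 of the 14. The 5 genes with the smallest p-values were RBM34, RBM12, RBM15, RBM39 and RBM47. With limma's diffSplice, RBM34 and RBM12 passed with shRBM10#2 and between the shRNAs. The shares of all genes above are from edgeR, and those with limma are not given here.

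RBM34 had the smallest usage p of the family. The isoform NM_001161533 held 14.4% and 23.5% of the expected counts of RBM34 in shScr, 13.9% and 12.8% in shRBM10#1, and 6.05% and 5.52% in shRBM10#2. The main isoform NM_015014 held 74.6% and 64.6% in shScr, 77.3% and 80.8% in shRBM10#1, and 86% and 87.1% in shRBM10#2. The shares of both isoforms were separated between shRBM10#2 and the other 4 libraries, and shScr replicate 2 stood apart from replicate 1.

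In 1 library, counting error alone gave a 95% Wilson interval of 5.02% to 7.27% for NM_001161533 in shRBM10#2 replicate 1 and of 12.6% to 16.3% in shScr replicate 1. The level of NM_001161533 was 6.35 and 10.9 CPM in shScr, 6.18 and 5.7 CPM in shRBM10#1, and 2.81 and 2.53 CPM in shRBM10#2, a log2 FC of -1.69 ± 0.296 (SE; edgeR FDR 0.0585) with shRBM10#2. The usage FDR with shRBM10#2 was 0.0575 with edgeR, and it was below the threshold with a minimum of 10 counts per library (0.00468), with isoforms of at least 5% of their gene (0.0252), with limma's diffSplice (0.00185) and without shScr replicate 1 (0.0468). It was above the threshold without shScr replicate 2 (0.753), shRBM10#2 replicate 1 (0.305), shRBM10#2 replicate 2 (0.431), shRBM10#1 replicate 1 (0.0582) or shRBM10#1 replicate 2 (0.0536). The shScr replicate 2 library had the shorter fragments and the highest share of this isoform, whose part in the result was not tested. The total of RBM34 stayed between 44.2 and 46.4 CPM in all 6 libraries.

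In RBM12, the isoform NM_006047 held 74.2% and 77.1% in shScr, 65.4% and 68.5% in shRBM10#1, and 74.5% and 71.9% in shRBM10#2. NM_001198838 held 14.6% and 11.9%, 17.5% and 16.4%, and 9.29% and 11.9% in the same order. NM_006047 was thus lowest in shRBM10#1, and NM_001198838 highest. A further isoform, NM_152838, was named after its values were seen. It held 11.2% and 11% in shScr and 15.1% to 16.5% in the 4 shRBM10 libraries. These shares did not overlap, and how many of all isoforms separate in this way was not counted. The log2 FC of its level was 0.42 ± 0.0936 (SE, edgeR FDR 0.148) with shRBM10#1 and 0.37 ± 0.0935 (edgeR FDR 0.102) with shRBM10#2. In DESeq2 both passed the FDR (0.00357 and 0.0082), but neither had an absolute log2 FC above 1. The usage FDR of RBM12 was 1 with shRBM10#1, 0.731 with shRBM10#2 and 0.7 between the shRNAs with edgeR.

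The shares of RBM15 and RBM39 varied between replicates. In RBM15, NM_022768 held 43.3% and 24.7% in shScr, 33.3% and 18.5% in shRBM10#1, and 17.3% and 20.5% in shRBM10#2, and NM_001201545 held the rest. In RBM39, the main isoform NM_184234 held 54.2% and 54.1%, 49% and 59.3%, and 50.9% and 41.2%, and the noncoding NR_040722 held 0.0506% and 2.2%, 9.08% and 0.062%, and 4.95% and 11.1%. The spread within a condition was as wide as the differences between conditions for NR_040722 and for RBM15 in shScr and shRBM10#1, and the smallest usage FDR of either gene was 0.817 (edgeR; RBM15 with shRBM10#2).

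RBM47 is made as a long and a short isoform that differ by 1 coding exon. NM_001098634 includes exon 5 (chr4:40436441-40436647, minus strand, GRCh38), of 207 nt or 69 codons, and NM_019027 joins the preceding exon (chr4:40437771-40438924) directly to chr4:40432651-40432862. The junctions are shown because reads across them separate the isoforms, though such reads were not counted separately here. The last 15 bases of the preceding exon are in lower case and the next 15, in capitals, begin either exon.
RBM47, NM_001098634: actactttgtgaaagCAGGCAGCATAAGAG
RBM47, NM_019027: actactttgtgaaagTAGCCATCCCTGCCA

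The isoform with the exon, NM_001098634, held 85.7% and 82.7% of the RBM47 counts in shScr, 85.2% and 87.7% in shRBM10#1, and 84.9% and 86.1% in shRBM10#2. NM_019027 held the rest. The conditions overlapped, and the usage FDR of RBM47 was 1 in each comparison (edgeR).

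**Figure D5:**
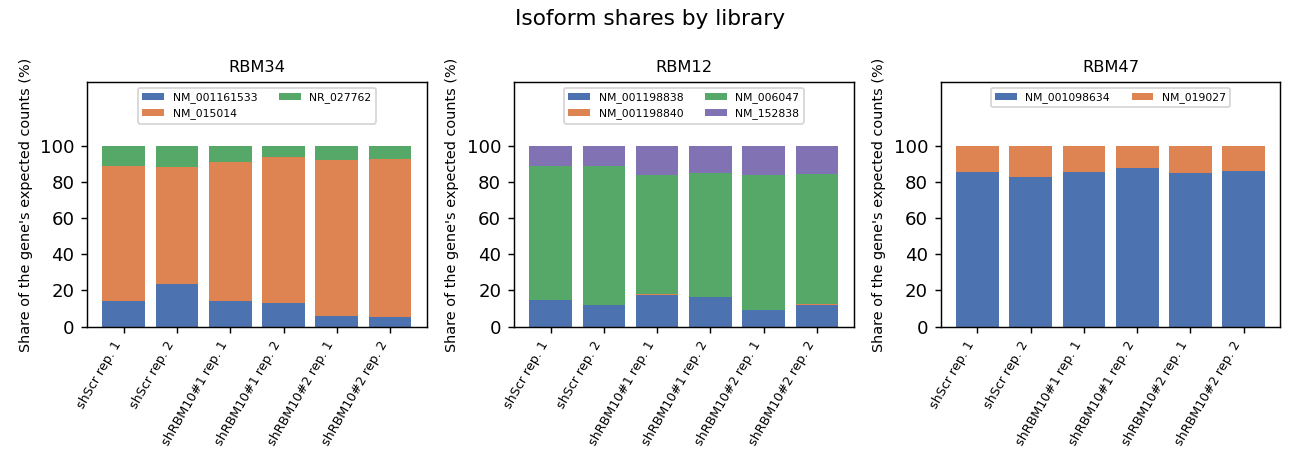
Shares of the expected counts of RBM34, RBM12 and RBM47 held by each isoform past the filter, as stacked bars from 0 to 100% for the 6 libraries. NM_001161533 of RBM34 falls to 6.05% and 5.52% in the shRBM10#2 bars, whereas the RBM47 bars differ little.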

How the data were processed

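Total RNA of the 6 PC-9 libraries was sequenced by the authors with a standard Illumina protocol. The submitters' processing notes name STAR 2.4, RSEM 1.2.29, edgeR and the genome build hg19. The authors deposited, for each RefSeq isoform and library, expected counts from RSEM, in which reads shared by isoforms are split and the error of that split is not given. The deposited TPM values are scaled by effective length to a fixed total. The authors also deposited FPKM values and the percent of its gene held by each isoform, which were not used in tests here. Shares printed here were computed from expected counts.

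Expected counts were summed per gene symbol and rounded, and tested in edgeR 4.0.16 (R 4.3.3; TMM, filterByExpr by condition, quasi-likelihood test, two-sided, FDR by Benjamini-Hochberg over all features tested, threshold 0.05). Contrasts of 2 conditions came from 1 fit of all 6 libraries, and the pooled comparison took the 4 shRBM10 libraries as 1 group. The SE of an edgeR log2 FC is its absolute value divided by the square root of the quasi-likelihood F statistic. Isoform usage was tested with diffSpliceDGE and Simes p-values. DESeq2 1.42.0 and limma 3.58.1 served as alternatives, beside another scaling, other filters on low counts, an effective length offset, the 4 libraries compared alone, and each library left out. The procedures were also run on simulated data with a fixed spread, in which all changes were larger than those of the numbered RBM genes that passed. That run does not show how well such small differences are found. Library totals were 31953729 to 37557507, with TMM factors of 0.979 to 1.02, and counts of replicates differed by more than sampling noise (chi-square per degree of freedom 3.22 to 12.2).

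The genes and lists were chosen with earlier results of these data known. Values in all libraries are given for genes that passed, the 3 highest by TPM, and RBM8A, RBM17, RBM39, RBM15, RBM7 and RBM3 as examples of the role lists. Isoform shares are given for 5 genes, chosen by smallest usage p, and for the 2 isoforms whose mean share differed most between conditions. Junction sequences and coordinates are from GENCODE 29 (GRCh38), matched by RefSeq identifier. They were not converted from hg19. Python 3.11.15 and matplotlib 3.10.9 were used for figures.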

Additional observations from a re-analysis of the deposited data

Results flagged for a closer look

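RBM10 and 5 of the 29 numbered RBM genes tested had a total that differed between shRBM10#2 and shRBM10#1 in the edgeR contrast of these conditions, which 25.5% of the 14217 genes tested passed. RBM10 differed by -1.11 (log2 FC, edgeR quasi-likelihood FDR 3.65e-06), with both shRBM10#2 libraries below both shRBM10#1 libraries. RBM42 differed by -0.45 (edgeR FDR 0.000967), RBM15B by -0.30 (edgeR FDR 0.00572), RBM14 by -0.33 (edgeR FDR 0.0108) and RBM19 by -0.36 (edgeR FDR 0.0183), each lower in both shRBM10#2 libraries. RBM41 differed by 0.26 (edgeR FDR 0.0407) and was higher in both shRBM10#2 libraries. The level of RBM10 and the identity of the shRNA cannot be told apart in this design.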

How the results depend on the processing

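The settings, other than those noted, were fixed with earlier results of these data known. Shares or counts over all features are given for the main fits and the replicate block only. A count that rose or fell under another setting is therefore not set against all features. The totals of RBM42 (against shScr and shRBM10#1) and RBM14 (against shScr) passed under each alternative that left no library out, other than an added absolute log2 FC above 1. Their main isoforms did not pass in the main edgeR isoform fit. The count of the 29 genes that passed with shRBM10#1 was 1 with the replicate block, the effective length offset or the 4 libraries compared alone, and 0 to 3 with a library left out (0 without shScr replicate 2, 3 without shRBM10#1 replicate 1). With shRBM10#2 it was 5 without a filter on low counts, 7 with the 4 libraries alone, and 2 to 7 with a library left out (7 without either shRBM10#1 library). Between the shRNAs it was 1 to 5 with a library left out (1 without either shRBM10#2 library, 3 without shRBM10#1 replicate 1). With a log2 FC above 1 required it was 0 in these 3 comparisons. With 1 coefficient per condition, the pooled comparison gave 2 (RBM14 and RBM41) in place of 0, and RBM10 passed at -1.1 (edgeR FDR 3.14e-07) in place of -0.99 (FDR 0.146). Member isoforms that passed numbered 1 with DESeq2 and 1 with the minimum of 10 counts per library (shRBM10#2), and 1 with DESeq2 (between the shRNAs). Isoform usage with shRBM10#2 passed for 1 gene with at least 10 counts or with isoforms of at least 5%, 2 with limma, and 0 to 1 with a library left out, and for 2 genes with limma between the shRNAs.

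With a library left out, the sign of small log2 FCs turned. The ranges were -0.22 to 0.02 for RBM14, -0.03 to 0.13 for RBM15, -0.11 to 0.07 for RBM3, -0.04 to 0.14 for RBM42 and -0.03 to 0.06 for RBM47 with shRBM10#1. They were -0.08 to 0.11 for RBM3 with shRBM10#2, and -0.05 to 0.12 for RBM3 and -0.03 to 0.03 for RBM8A between the shRNAs. In the pooled comparison they were -0.05 to 0.07 for RBM15B, -0.05 to 0.01 for RBM17, -0.09 to 0.10 for RBM19, -0.10 to 0.09 for RBM3 and -0.02 to 0.11 for RBM7. The causes were not tested.

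The replicate numbers are shared by the conditions, and no source used here says whether they pair the libraries. The deviations of same-numbered libraries correlated at -0.0038, -0.0193 and -0.0136 over 14217 genes. No replicate effect common to the conditions was thus seen, and the main fits used no block. With the replicate block, 1, 2, 4 and 0 of the 29 genes passed in the 4 comparisons, and 1755, 3209, 3175 and 52 of all genes, and the usage FDR of RBM34 with shRBM10#2 was 0.146. At this depth, genes under about 1 CPM, such as RBM44, could not show differences of the size seen in the other genes. The same held above that level for RBM20 (1.22 to 2.01 CPM, SE up to 0.271). RBM48 did not pass with shRBM10#2 at a log2 FC of 0.36 ± 0.136 (SE; edgeR FDR 0.0693).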
